A study of Drosophila melanogaster with 2 samples.

Results

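The genes described here encode the proteins of the mitochondrial ribosome of Drosophila melanogaster. They were the protein-coding genes of the Ensembl annotation (release 115, dm6) whose symbol is mRpL or mRpS followed by a number, and they came to 73 of 13945 protein-coding genes. Of these, 47 encode proteins of the large subunit (mRpL) and 26 of the small subunit (mRpS). They lay on 2L (12 genes), 2R (12), 3L (17), 3R (21) and X (11), with none on 4. The symbols tko and bonsai, which encode the S12 and S15 proteins of the same particle, fall outside the naming rule and are given separately.

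Chromatin immunoprecipitation sequencing (ChIP-seq) was done with an antibody against GFP on 2 biological replicates, numbered 1 and 3, of whole prepupae of mixed sex. All animals belonged to the dac-GFP strain, a transgenic line with GFP joined to the C-terminus of Dachshund. The replicates make up the only group, so the comparisons below are between these genes and all protein-coding genes. No mock or untagged library was analysed here, and chromatin that the antibody recovers without the tagged protein would look the same in these lists. A further limit is that the labels do not say whether an untagged dac gene remained, and their age of 48 days goes against the prepupal stage. In whole animals, weak binding in many cells cannot be told apart from strong binding in a few.

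Mitochondrial ribosomes are assembled from nuclear-encoded proteins and mitochondrial ribosomal RNA, and they translate the few proteins that mitochondrial DNA encodes, which are subunits of the respiratory chain and ATP synthase. Some of their proteins descend from those of the bacterial ribosome, while others were added in mitochondria. By the numbering used here, 42 genes were of the bacterial type and 31 mitochondria-specific. Numbers up to that of mRpL36 or mRpS21 counted as bacterial, and the number alone does not settle the descent of a protein. Dachshund, a nuclear transcriptional regulator, acts with the eye-determination genes and in the growing leg. The data say where the tagged protein was recovered, and they hold no measure of expression.

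The main list held the 4137 peaks that the authors kept by the irreproducible discovery rate (IDR), a procedure based on how alike peaks rank in replicates. A peak was given to the gene with the nearest protein-coding transcription start site (TSS) to its summit, and tied genes were all counted. Signal is the authors' own value per peak, without a stated scale, and rank 1 is the highest signal of a list. Each replicate and the pooled data also had a relaxed list of 30000 peaks, of which 5282 in replicate 1, 13828 in replicate 3 and 9178 in the pooled list had a q-value of 0.05 or less. Read depth is unknown, so intervals on shares of genes cover counting alone. Some IDR peaks had no counterpart in a replicate's relaxed list, 2.78% of them in replicate 1 and 0.628% in replicate 3. A place in the main list is thus not by itself evidence of a peak in both replicates. The first 4137 pooled peaks by signal gave the same gene counts as the main list. These were 2460 protein-coding genes by the nearest TSS and 1088 with a summit within 200 bp.

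Many peaks at these genes sat in short intervals between divergent start sites. The sequences below are shown because each is the stretch around such a summit, 60 bp to either side and cut at the start sites, for 6 genes whose peaks carry the results. They were read from the Release 6 genome (RefSeq) on the strand of the mitochondrial ribosomal gene and contain no annotated exon. Capitals mark TTAATT or its reverse complement AATTAA, which together read AATTAATT where matches overlap. The mRpS26 window holds neither.
mRpS23 (chr2L:13835381-13835501, minus strand): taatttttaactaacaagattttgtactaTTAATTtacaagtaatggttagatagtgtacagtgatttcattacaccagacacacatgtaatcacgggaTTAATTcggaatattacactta
mRpS10 (chr3R:15229476-15229596, plus strand): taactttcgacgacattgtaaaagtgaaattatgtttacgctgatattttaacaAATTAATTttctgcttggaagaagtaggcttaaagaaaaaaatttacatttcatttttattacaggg
mRpL24 (chr2L:4945441-4945561, minus strand): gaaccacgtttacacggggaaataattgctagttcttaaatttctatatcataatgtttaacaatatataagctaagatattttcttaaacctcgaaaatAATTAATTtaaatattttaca
mRpS6 (chr3L:4364433-4364549, plus strand): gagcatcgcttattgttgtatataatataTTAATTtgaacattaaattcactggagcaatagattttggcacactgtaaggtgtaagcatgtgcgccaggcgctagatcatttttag
mRpS7 (chr2L:10386491-10386611, plus strand): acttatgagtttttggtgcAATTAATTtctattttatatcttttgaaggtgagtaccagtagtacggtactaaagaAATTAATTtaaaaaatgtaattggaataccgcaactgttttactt
mRpS26 (chr3L:18106453-18106573, plus strand): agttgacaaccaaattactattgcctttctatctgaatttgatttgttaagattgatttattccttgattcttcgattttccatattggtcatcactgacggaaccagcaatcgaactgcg
The summit of mRpL23 lay in its 5′ UTR, and 30 bases around it are given.
mRpL23 (chr3L:2373591-2373620, minus strand): tgtggaatattttatagttacagcgtaata
The 30 bases that follow show a pair of E-boxes with the letters CAGCTG, in capitals, just after the start site of mRpS6.
mRpS6 E-boxes (chr3L:4364559-4364588, plus strand): tgcatCAGCTGttaacactatCAGCTGgtg
TTAATT was picked, on either strand, after the windows of 11 summits had been read, so its count is a description that the choice favoured. It lay within 60 bp of 12 of the 18 IDR summits found within 500 bp of these genes' start sites (66.7%), against 226 of 905 IDR summits within 200 bp of any protein-coding TSS (25.0%). In the 7 windows that had not been read, 3 held it (42.9%), against 9 of the 11 that had. The median AT content was 67.8% in the 18 windows and 63.6% in the 905. Of all 73 promoters, from 250 bp before to 50 bp after the outermost TSS, 45 held TTAATT (61.6%), against 43.2% of all protein-coding promoters. The share was 75.0% among the 16 genes with an IDR summit within 500 bp and 57.9% among the other 57.

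By the nearest start site, 6 of the 73 genes had an IDR peak (8.22%, exact 95% interval 3.08 to 17.0), against 17.6% of all protein-coding genes. The 6 were mRpL23, mRpL41, mRpL53, mRpS6, mRpS7 and mRpS26, each with 1 peak. All 6 summits lay within 200 bp of a start site and their distances had a median of 75 bp, whereas 905 of all IDR summits lay that close (21.9%) and the median over the list was 1322 bp. The rule itself limits these distances, since a gene is given only summits nearest to its own start sites. That territory had a median of 1522 bp for these genes and 4356 bp for all genes. How far it sets the short distances was not tested. The summit was upstream of the TSS in 5 of the 6. Signal had a median of 147 over the 6 peaks and 172 over the whole IDR list.

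The signals fell into 2 strong peaks and 4 from the lower part of the list. mRpL23 (FBgn0035335), whose bacterial counterpart lines the exit of the peptide tunnel, had a peak of 355 bp with a signal of 961 and rank 39 (3L, 2373435 to 2373789). Its summit lay 73 bp downstream of the nearest of its 3 start sites, in the 5′ UTR, and 123 bp from a TSS of CG9004. The peak was recovered in both replicates, at a signal of 338 and rank 52 in replicate 1 and a signal of 621 and rank 37 in replicate 3.

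mRpL41 (FBgn0034001), a mitochondria-specific protein of the large subunit, had an intergenic peak of 334 bp with a signal of 941 and rank 42 (2R, 15217585 to 15217918). The summit lay 136 bp upstream of its TSS, and the next start site, of CG8079, was 626 bp away. Replicate 1 placed it at rank 56 with a signal of 322, and replicate 3 at rank 41 with a signal of 606. These were the only genes of the 73 whose own peak ranked in the first 1000 of the IDR list.

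The other 4 peaks were each 410 bp wide, the width that 2648 IDR peaks shared at a median signal of 143, and they ranked between 2518 and 3579. mRpS6 (FBgn0035534), named for a protein of the platform of the bacterial small subunit, had a signal of 152 and rank 2518 (3L, 4364288 to 4364697). Its summit was 57 bp upstream of the TSS, at rank 4349 in replicate 1 and rank 2190 in replicate 3. mRpS26 (FBgn0036774), a mitochondria-specific protein, had a signal of 121 and rank 3579 (3L, 18106308 to 18106717), 66 bp upstream, at rank 4092 in replicate 1 and rank 4214 in replicate 3. Both were seen in both replicates.

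The remaining pair had weaker or no evidence in replicate 1. mRpL53 (FBgn0050481), a mitochondria-specific protein of the large subunit, had a signal of 141 and rank 2829 (2R, 13953913 to 13954322), with the summit 77 bp upstream of a TSS that it shares with CG33155. That summit lies in an intron of AGO1, the Argonaute gene of the microRNA pathway, and 93 bp from a TSS of AGO1. In replicate 1 the peak ranked 5785 with a −log10 q of 1.15, short of the 0.05 threshold. In replicate 3 it ranked 2203 with 4.14, the ceiling of that list, which the mRpS26 peak shared at rank 4214. mRpS7 (FBgn0032236), whose bacterial counterpart helps start assembly of the small subunit head, had a signal of 138 and rank 2943 (2L, 10386346 to 10386755). Its summit was 111 bp upstream and 289 bp from the TSS of Cdk1, the kinase of mitotic entry. Replicate 3 held it at rank 2359, but no peak of replicate 1 overlapped it, and the closest summit there was 2898 bp away.

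Distance without regard to which gene was nearest gave another picture. An IDR summit lay within 200 bp of a TSS in 12 of the 73 genes (16.4%, exact 95% interval 8.79 to 27.0), against 7.80% of all protein-coding genes. Within 500 bp the count was 16 (21.9%, 13.1 to 33.1), against 12.3%, and within 1000 bp it was 17 (23.3%, 14.2 to 34.6), against 15.1%. The gene added at 1000 bp was mRpL33, 627 bp from a summit at norpA, the phospholipase C gene of phototransduction. Thus the share was under that of all genes by the nearest start site and over it by distance alone. At 1000 bp the interval held the share of all genes. Among the 4137 highest peaks of replicate 1, 6 genes were nearest to a summit (8.22%, 3.08 to 17.0, against 16.8%) and 8 had one within 200 bp (11.0%, 4.85 to 20.5, against 6.22%). In replicate 3 the counts were 5 (6.85%, 2.26 to 15.3, against 18.3%) and 9 (12.3%, 5.80 to 22.1, against 9.57%). In single replicates both intervals at 200 bp, and that of replicate 1 by the nearest TSS, thus held the share of all genes.

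**Figure D1:**
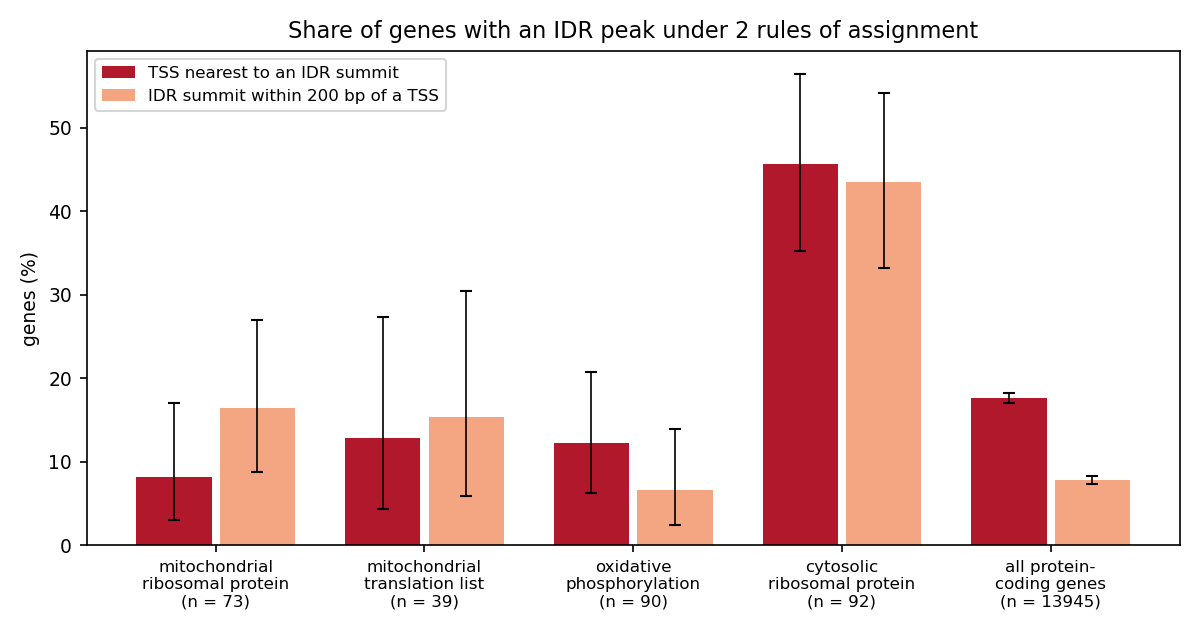
Share of genes (%) with an IDR peak by the nearest TSS (dark bars) and by a summit within 200 bp of a TSS (light bars), with exact 95% intervals that cover counting only. Mitochondrial ribosomal protein genes stood at 8.22% and 16.4%, and all protein-coding genes at 17.6% and 7.80%.

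The genes are short and closely paired with others. Their median length was 909 bp, against 2166 bp for all protein-coding genes, with mRpL34 the shortest at 390 bp and mRpS9 the longest at 13391 bp. A protein-coding gene on the opposite strand started within 500 bp upstream of 51 of the 73 (69.9%), against 25.0% of all genes and 38.0% of the 92 cytosolic ribosomal protein genes. The territory within which their start sites are the nearest had a median of 1522 bp, against 4356 bp for all genes. Among genes in such divergent pairs, 4 of 51 mitochondrial ribosomal genes had an IDR peak by the nearest TSS (7.84%), against 16.3% of all divergent genes, and 10 of 51 had one within 200 bp (19.6%), against 15.1%. Of the 22 not in such a pair, 2 had a peak by either rule (9.09%), against 18.1% and 5.36% of all genes outside divergent pairs. How far pairing and territory account for the gap between the rules was not tested.

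The 18 IDR peaks within 500 bp of these start sites belonged to 16 genes, and 12 of them were nearer to another gene. In all 12 that gene lay on the opposite strand, and 10 mitochondrial ribosomal genes were reached only by such peaks. These counts were not made for all 1711 protein-coding genes with an IDR summit within 500 bp. Whether they are high or low for such genes is therefore not known. Of the 18 summits, 17 were upstream of the mitochondrial ribosomal gene, and the median distance of the 18 was 153.5 bp. For the 12 this position follows from the neighbour's start site lying upstream. Of the 6 nearest to a mitochondrial ribosomal gene, 5 were upstream. The median signal of the 18 peaks, 170, was close to the 172 of the IDR list, and 9 of the 18 were at or above that value. At the top of the list, 5 of the 18 ranked in the first 300 of the 4137 IDR peaks. In the replicates the 18 were counted only at a depth of 4137 peaks. Most IDR peaks reach that depth, so it cannot show an excess at the top. In replicate 1, 13 of the 18 were within the first 4137 peaks, against 78.2% of all IDR peaks. In replicate 3, 15 were, against 85.3%. The genes that these neighbour peaks bring in were named after their values had been seen.

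**Figure D2:**
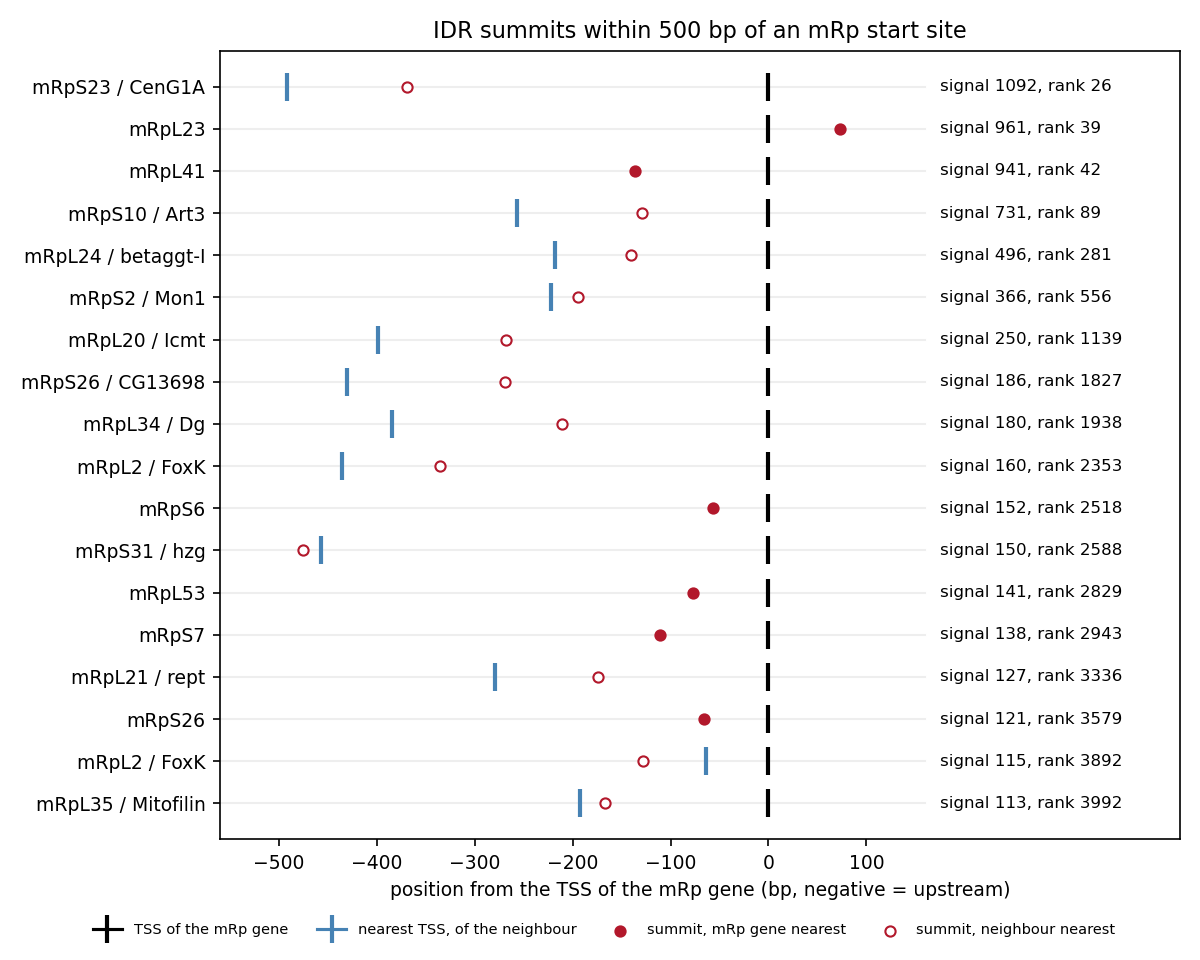
Position (bp) of each of the 18 IDR summits relative to the TSS of the mitochondrial ribosomal gene (black tick at 0), ordered by signal, with the nearest neighbour TSS as a blue tick. Filled circles mark the 6 summits nearest to the mitochondrial ribosomal gene and open circles the 12 nearest to a divergent neighbour, and 17 of the 18 fall upstream of 0.

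Small-subunit genes held the strongest of these shared intervals. The peak between mRpS23, a mitochondria-specific gene, and CenG1A, which encodes an Arf GTPase-activating protein, had a signal of 1092 and rank 26 (2L, 13835300 to 13835621), with ranks of 30 in replicate 1 and 26 in replicate 3. Its summit was 369 bp upstream of mRpS23 and 123 bp from CenG1A. The peak between mRpS10 and Art3, a protein arginine methyltransferase gene, had a signal of 731 and rank 89 (3R, 15229373 to 15229707). The summit lay 129 bp from mRpS10 and 128 bp from Art3, so that the gene it is given to turns on 1 bp. In replicate 1 it ranked 117 and mRpS10 was the nearest gene, while in replicate 3 it ranked 78 and Art3 was.

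At mRpS2, whose bacterial counterpart binds the small subunit late in assembly, the peak shared with Mon1, a gene of the Rab7 activator, had a signal of 366 and rank 556 (2L, 4850494 to 4850697). It lay 194 bp upstream of mRpS2 and 28 bp from Mon1, with ranks of 1202 in replicate 1 and 387 in replicate 3. A second peak near mRpS26 overlapped the one given to that gene. Its summit was 269 bp upstream and was given to CG13698, with a signal of 186 and rank 1827, higher than the peak of mRpS26 itself. mRpS31 was 475 bp from a summit at hzg with a signal of 150 and rank 2588.

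Among the large-subunit genes, mRpL24, whose bacterial counterpart starts assembly of the large subunit, shared its interval with betaggt-I, which encodes a subunit of a protein prenyltransferase. That peak had a signal of 496 and rank 281 (2L, 4945351 to 4945634), 140 bp upstream of mRpL24 and 78 bp from betaggt-I. It ranked 307 in replicate 3 and overlapped no peak of replicate 1, where the closest summit was 13581 bp away. Only 2 of the first 300 IDR peaks lacked a replicate 1 peak, and this was one of them. Why it was missing was not tested.

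mRpL20 lay 268 bp from a summit at Icmt, a gene of prenyl-protein methylation, with a signal of 250 and rank 1139 (3L, 13017930 to 13018339), at rank 1944 in replicate 1 and 920 in replicate 3. mRpL34 was 211 bp from a summit at Dg, the dystroglycan gene, with a signal of 180 and rank 1938. In replicate 1 the summit of that peak, at rank 1732, was nearer to mRpL34. mRpL2, whose bacterial counterpart sits beside the peptidyl transferase centre, had 2 overlapping peaks given to the forkhead gene FoxK, with signals of 160 and 115 at 335 and 128 bp upstream. Both overlapped the same replicate 1 peak, at rank 3924. mRpL21, beside the ATPase gene rept, and mRpL35, beside the cristae gene Mitofilin, were also low, with signals of 127 at rank 3336 and 113 at rank 3992. The 12 peaks nearer to a neighbour thus ran from rank 26 to rank 3992 of the IDR list. Not all lay between the start sites. The summits near mRpL2 were in an intron and a 5′ UTR, and the one near mRpS31 was in a 5′ UTR.

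**Figure D3:**
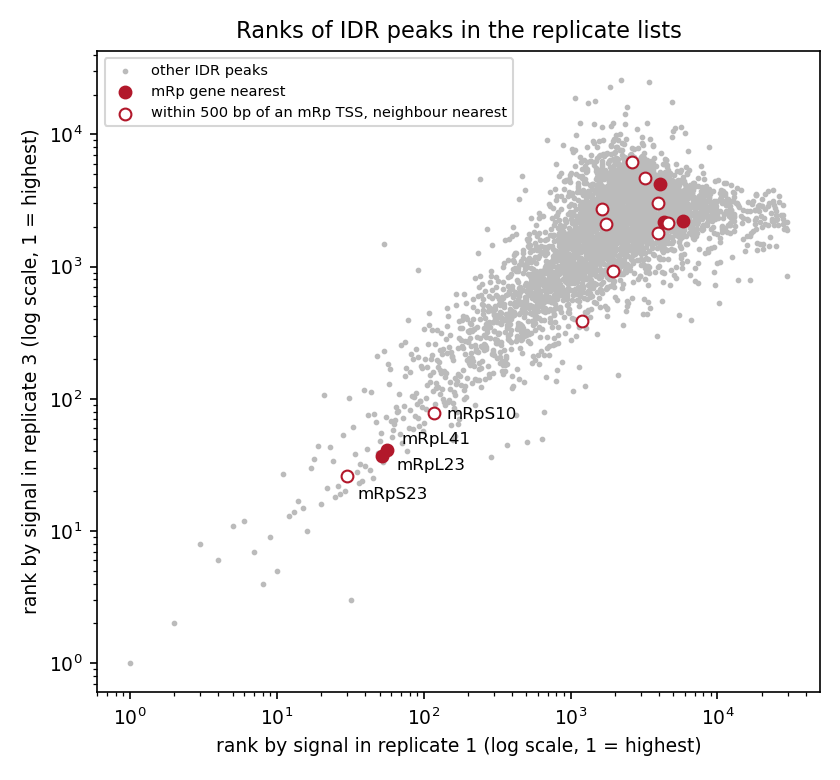
Rank by signal of each IDR peak in replicate 1 (x axis) and replicate 3 (y axis), both on log scales with 1 the highest, for IDR peaks that overlap a peak in both relaxed lists. Circles mark the peaks within 500 bp of a mitochondrial ribosomal TSS (filled where that gene is nearest), of which mRpS23, mRpL23, mRpL41 and mRpS10 lie at the strong end and the others mostly between ranks 1000 and 6194. The mRpS7 and mRpL24 peaks have no replicate 1 rank and are not drawn.

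Genes of both subunits and both origins had peaks. By the nearest TSS, 3 of 47 large-subunit and 3 of 26 small-subunit genes had an IDR peak, as did 3 of 42 bacterial-type and 3 of 31 mitochondria-specific genes, against 17.6% of all protein-coding genes. Within 200 bp, where the share of all genes was 7.80%, 7 large-subunit (14.9%, exact 95% interval 6.20 to 28.3) and 5 small-subunit genes (19.2%, 6.55 to 39.4) had a summit. By origin as assigned from the number, 9 bacterial-type (21.4%, 10.3 to 36.8) and 3 mitochondria-specific genes (9.68%, 2.04 to 25.8) did. The intervals of the subunits overlapped, as did those of the origins, and the differences were not tested. On X none of 11 genes had an IDR peak by either rule, beside 21.9% and 8.24% of all X-linked protein-coding genes. On 3R none of 21 had one by the nearest TSS and 2 had one within 200 bp, beside 17.1% and 7.57% of all genes of that arm. On 3L the counts were 3 and 5 of 17, beside 17.7% and 8.21%.

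The relaxed lists brought in further genes at low signal. In the pooled list 19 of the 73 genes were nearest to a summit (26.0%), against 47.2% of all genes, and at a q-value of 0.05 or less 10 were (13.7%), against 28.3%. Within 200 bp the pooled list reached 27 of the 73, against 25.6% of all genes. By the nearest TSS, replicate 1 reached 17 genes (23.3%, against 51.2%) and replicate 3 reached 22 (30.1%, against 49.9%). Within 200 bp the counts were 19 in replicate 1 (26.0%, against 20.0%) and 31 in replicate 3 (42.5%, against 32.4%). Over the replicate and pooled lists together, 10 genes were in all by the nearest TSS and 44 in none. Within 500 bp of a TSS, 20 genes had a summit in every relaxed list and 25 in none, and those in none included mRpL1, mRpL10, mRpL12 and mRpS9. Shares of all protein-coding genes were not computed over the lists together. Whether these combined counts are high or low is therefore not known.

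The order of the rules held along the pooled list. Its first 1000 peaks were nearest to 2 genes (2.74%, against 6.02% of all genes) and its first 10000 to 10 (13.7%, against 29.5%). Within 200 bp, the first 1000 peaks reached 5 genes (6.85%, against 2.50%) and the first 10000 reached 18 (24.7%, against 15.1%).

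**Figure D4:**
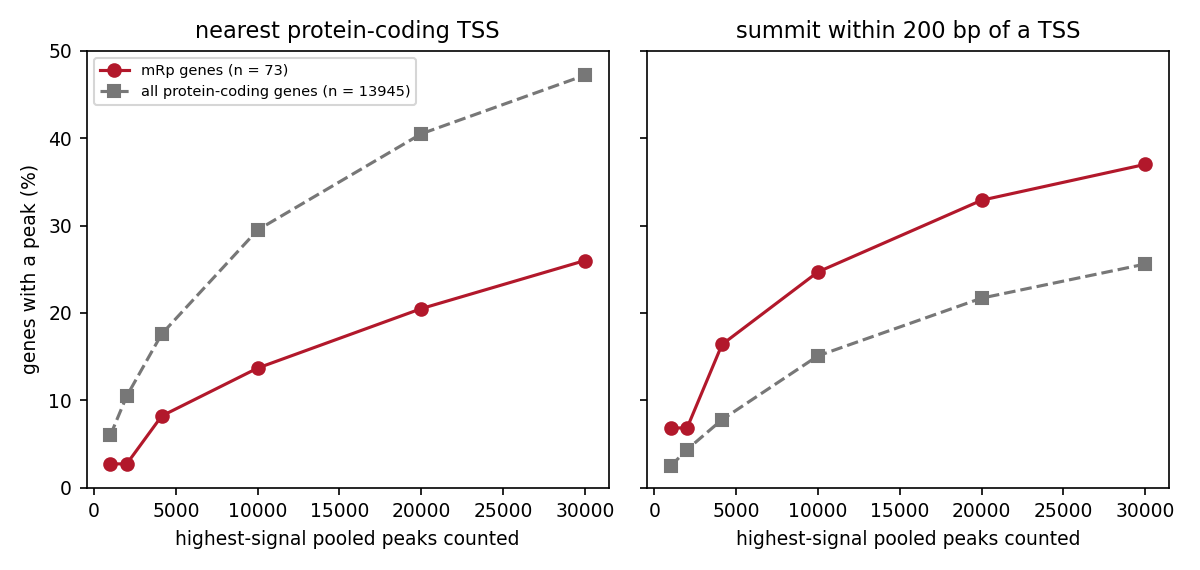
Share of genes (%) with a peak against the number of highest-signal pooled peaks counted, by the nearest TSS (left) and by a summit within 200 bp of a TSS (right). Mitochondrial ribosomal genes (red circles) run below all protein-coding genes (grey squares) on the left, ending at 26.0% and 47.2%, and above them on the right, ending at 27 of the 73 genes and 25.6%.

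Of the genes without an IDR peak of their own, the highest pooled signal was 90.9, at mRpL13 (rank 5383), whose summit lay 7538 bp upstream of a TSS that it shares with CG10602. It was followed by mRpS18B with 76.9, 86 bp upstream, mRpS31 with 73.5, 219 bp upstream, and mRpL50 with 70.0, 53 bp upstream. At −log10 q of 2.86, 2.06, 1.96 and 1.73 these 4 were past the 0.05 threshold. The mRpL13 peak was in both replicates, at rank 4053 in replicate 1 and rank 9814 in replicate 3, whereas the mRpL50 peak overlapped none in replicate 1. The next 6, mRpS5, mRpL16, mRpL19, mRpS11, mRpL17 and mRpL34, had signals between 56.5 and 34.9 and did not pass it. The mRpL19 and mRpS11 peaks overlapped none in replicate 1, and the mRpS5 peak none in replicate 3. Their summits lay 7 to 55 bp upstream of the TSS, apart from mRpL16, where it was 3485 bp downstream.

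Other genes of mitochondrial translation were reached in part. Of 39 genes in a list of translation and mitochondrial DNA expression factors, 5 had an IDR peak by the nearest TSS (12.8%, exact 95% interval 4.30 to 27.4, against 17.6% of all genes) and 6 had a summit within 200 bp (15.4%, 5.86 to 30.5, against 7.80%). Both intervals held the share of all genes. PNPase, a mitochondrial RNA-degrading enzyme, had a signal of 1603 and rank 4, with its summit 77 bp downstream of a TSS (3R, 31404490 to 31404835). SLIRP2, an RNA-binding protein, had 635 at rank 136 (3R, 8650811 to 8651113). Its relative SLIRP1, which shares a TSS with anox, had 197 and 156 at 2 overlapping peaks. The initiation factor mIF2 had 130 at rank 3197 and the arginyl-tRNA synthetase ArgRS-m had 128 at rank 3304. GatA, a subunit of the enzyme that forms glutaminyl-tRNA, had a summit given to P5cr at -108 bp from its TSS. The translation list thus held 1 peak stronger than any of the 73 genes.

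Of 90 oxidative phosphorylation subunit genes, 11 had an IDR peak by the nearest TSS (12.2%, against 17.6% of all genes) and 6 within 200 bp (6.67%, against 7.80%). Cytosolic ribosomal protein genes had 42 of 92 by the nearest TSS (45.7%) and 40 within 200 bp (43.5%), so that the mitochondrial ribosomal genes, at 8.22% and 16.4%, were lower than the cytosolic ones by both rules. The lists were built from symbols and include testis paralogues. Neither tko nor bonsai had an IDR peak or a pooled relaxed peak.

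An E-box was common in these promoters, whether or not a peak was near. E-boxes are the sites of basic helix-loop-helix proteins, and matches were sought on both strands of the window from 250 bp before to 50 bp after the outermost TSS. CAGCTG was present in 40 of 73 (54.8%, exact 95% interval 42.7 to 66.5), against 17.7% of all protein-coding promoters and 9.78% of cytosolic ribosomal ones. It was in 9 of the 16 genes with an IDR summit within 500 bp (56.2%) and in 31 of the other 57 (54.4%). The 45 matches clustered at the start site, with a median position 2 bp after it and quartiles from -34 to 16 bp. By the first base of each match, they lay 14 and 30 bp after the TSS in mRpS6, as in the sequence above, and 16 bp after it in mRpL53.

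The other motifs were rarer. TATCGATA, the DNA replication-related element (DRE), was in 15 promoters (20.5%), against 9.37% of all, and GGTCACACT, the core of the M1BP motif, in 8 (11.0%), against 6.05%. CACGTG, the E-box that Myc binds, was in 5 (6.85%), against 4.24%. GAGAGAG, bound by GAGA factor, was in 1 (1.37%), against 5.87%, and the NRF1-type motif was in 0, against 0.208%. Within 100 bp of the 18 summits, CAGCTG occurred at 4 (22.2%), against 7.83% of all IDR summits, and DRE at 0, against 1.38%. The Myc E-box, the GAGA motif and the M1BP core occurred at 1 each (5.56%), against 1.93%, 5.51% and 1.04%. The CAGCTG matches lay 48 bp from the summit at mRpS2 and 74 to 96 bp from it at mRpS6, mRpL24 and mRpL53. By their centres, those at mRpS2 and mRpL24 lay at -242 and -234 bp from the TSS of the mitochondrial ribosomal gene. That is beyond the outermost start sites of Mon1 and betaggt-I, at gaps of 222 and 218 bp. All IDR summits are an unlike reference here, because only 905 of them (21.9%) lay within 200 bp of a TSS. These motifs were not counted at those 905 summits alone. A match is a string of letters and not a measured site.

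**Figure D5:**
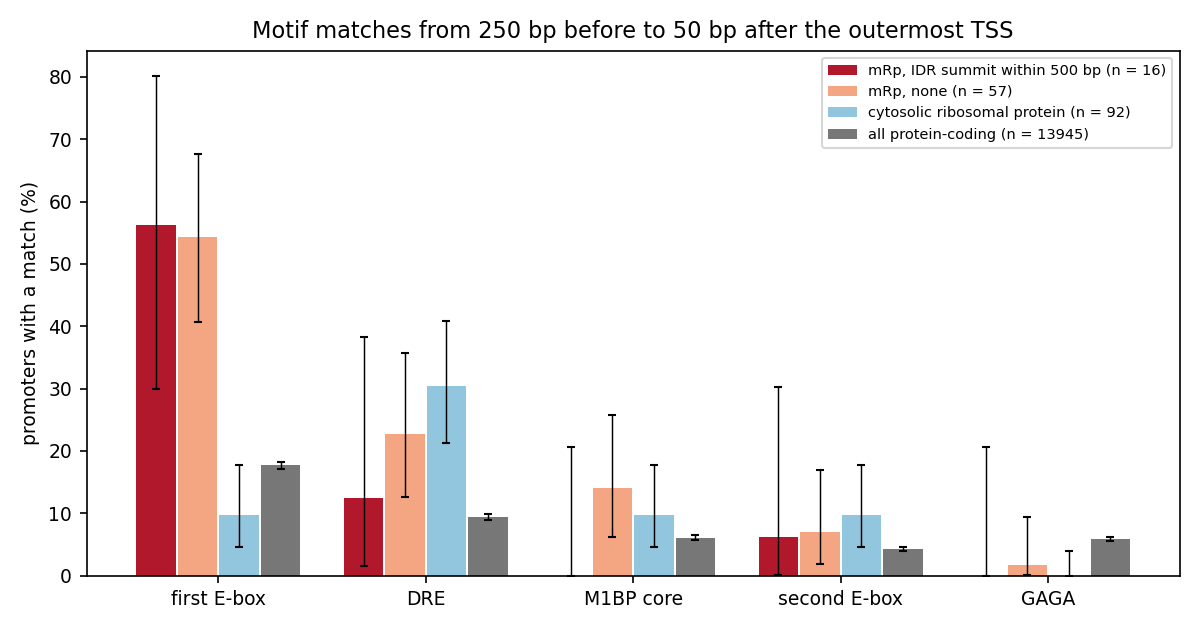
Share of promoters (%) with a match to each motif in mitochondrial ribosomal genes with and without an IDR summit within 500 bp, cytosolic ribosomal protein genes and all protein-coding genes, with exact 95% intervals. The first E-box (CAGCTG) stands at 56.2% and 54.4% in the mitochondrial ribosomal groups and 17.7% in all genes, and the second E-box is CACGTG.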

How the data were processed

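ChIP-seq with an anti-GFP antibody was done on 2 biological replicates of dac-GFP prepupae, per the labels. The authors deposited peak lists, with a signal value per peak and a q-value as −log10 q, without a stated signal scale. Read depth is unknown, and the aligner, the caller and the threshold of the IDR step are not stated in the labels or headers. Signal was compared only within a list and between lists by rank. Only the dm6 lists were used. All IDR peaks carry the list's highest −log10 q, 3.95.

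Genes came from Ensembl release 115 and sequence from the Release 6 genome (RefSeq). Coordinates are 1-based. Summits were assigned in Python 3.11.15 with numpy 2.4.6 to the nearest TSS of 13945 protein-coding genes on 2L, 2R, 3L, 3R, 4 and X, with ties counted for every gene. A replicate peak was matched by an overlap of at least 1 bp, taking the nearest summit. The assignment was tested on simulated data. Exact (Clopper-Pearson) intervals came from scipy 1.17.1 and cover counting error only. No test was made, since there was 1 group.

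Named genes are all with an IDR peak, the 10 next by pooled signal, tko, bonsai, bound translation genes and neighbours sharing a peak. Of the listed translation genes, ico and mtFMT matched no symbol. The genes and lists were chosen with earlier results of these data known. Alternatives varied the list, rule, window and replicates.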

Additional observations from a re-analysis of the deposited data

How the results depend on the processing

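The count of 6 mitochondrial ribosomal genes with an IDR peak by the nearest TSS changed with the list and the assignment rule. It was 12, 16 and 17 with a summit within 200, 500 and 1000 bp, whichever gene was nearest, and the 500 bp window was chosen after seeing the data. It was 10 in the pooled relaxed list at a q-value of 0.05 or less and 19 in that whole list. Among IDR peaks at or above the median signal it was 2 (against 10.8% of all genes). The count ran from 5 to 6 without either replicate, and was 6 with non-coding RNA genes included, 7 by the peak midpoint, 8 with outermost start sites and 6 with ties given to the lower identifier. The share stayed under that of all genes in each of these except the 3 distance windows, where it was over it.

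The 12 genes with a summit within 200 bp became 5 among peaks at or above the median signal (against 4.48% of all genes) and 8 to 9 in single replicates. They stayed at 12 by the peak midpoint and by outermost start sites. These alternatives were added after seeing the data.

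The median distance of 75 bp became 104 bp among peaks at or above the median signal, 78 bp by the midpoint and 62 to 132 bp without either replicate. The median signal of 147 became 951 at or above the median signal and 152 by the midpoint, and was not computed for single replicates because the scales differ. In the window from 100 bp before to 50 bp after the TSS, the GAGAGAG share became 0.00% (all promoters 3.28%), CACGTG fell to 4.11% from the 6.85% of the wider window (all 2.43%), and CAGCTG was 52.1% (all 12.1%). No paired analysis was possible because there was a single group and no test. Few peaks and unknown read depth limit every count.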
